A study of Mus musculus with 4 samples.

Results

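Uqcrc1, Cycs, Cox4i2, Cox5b, Cox7a2 and Cox7b encode cytochrome c and subunits of complexes III and IV, the last steps of the mitochondrial electron transport chain. These 6 genes were measured by 12 probes among the 33012 probes of the array. The genes were chosen by measured values, because 7 of the 12 probes were selected on the same arrays: they stand in the study's supplementary list of probes whose signal differed between the groups by fold and by an unadjusted test. The other 5 probes share a gene identifier with a listed probe and are not in that list. The differences between the groups are therefore given as a description, without a test.

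RNA of brown adipocytes was measured on 1-colour ABI Mouse Genome Survey arrays. The cells had been differentiated from immortalized FVB mouse brown preadipocytes. One group carried lentivirus expressing NT-PGC-1α, a short form of the transcriptional coactivator PGC-1α, here with a hemagglutinin tag, and the other group, the control, carried the empty vector. Both groups received insulin, triiodothyronine, isobutylmethylxanthine, dexamethasone and indomethacin for 2 days of induction, and then insulin and triiodothyronine for 5 days of maintenance. RNA was pooled within each group, and the deposited description and the methods differ in the number of RNA samples per pool. Each group was thus 1 pool on 2 technical arrays, A and B, so that the spread given here is that between arrays and not between cultures. The model is an immortalized line with an added coding sequence, and neither the site nor the number of its insertions was analysed here. The deposited signals of the 4 arrays had medians of 448 and 398 in the control and of 442 and 395 with NT-PGC-1α. Over all probes, which are not independent of each other, log2 signals correlated with r = 0.991 between the arrays of a pool and with r from 0.954 to 0.957 across the pools.

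Complex III takes electrons from ubiquinol and passes them to cytochrome c, a small soluble protein of the intermembrane space. Cytochrome c carries them to complex IV, cytochrome c oxidase, which reduces oxygen to water, and both complexes pump protons across the inner membrane. In brown adipocytes this gradient is used for heat as well as for ATP, and PGC-1α is known as a coactivator of the nuclear genes of the chain, in part with the transcription factors NRF-1 and ERRα.

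Promoters of the genes are shown because the genes code for parts of one pathway and most of their probes moved the same way. RefSeq promoter windows of the GRCm38.p6 build, from 250 bases before to 50 bases after the start of transcription, were found for 5 of the 6 genes, that is for all but Cox4i2. The runs end at the base before the start and are written 5′ to 3′ on the strand of the gene. Capitals mark matches to the motifs named after the sequences. The run of Cycs covers chr6:50566570-50566819 on the minus strand and the run of Uqcrc1 chr9:108936548-108936647 on the plus strand. Those of Cox5b, Cox7a2 and Cox7b cover chr1:36691387-36691486 on the plus strand, chr9:79759854-79759953 on the minus strand and chrX:106015600-106015699 on the plus strand.
Cycs: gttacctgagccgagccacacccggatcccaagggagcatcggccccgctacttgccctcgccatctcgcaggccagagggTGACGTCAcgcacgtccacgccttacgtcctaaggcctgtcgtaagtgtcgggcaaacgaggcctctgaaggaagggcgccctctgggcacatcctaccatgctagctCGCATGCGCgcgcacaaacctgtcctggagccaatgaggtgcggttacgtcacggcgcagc
Uqcrc1: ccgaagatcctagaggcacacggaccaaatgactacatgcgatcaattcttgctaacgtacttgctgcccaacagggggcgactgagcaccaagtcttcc
Cox5b: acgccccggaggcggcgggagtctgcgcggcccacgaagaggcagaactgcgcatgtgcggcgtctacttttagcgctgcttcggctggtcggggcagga
Cox7a2: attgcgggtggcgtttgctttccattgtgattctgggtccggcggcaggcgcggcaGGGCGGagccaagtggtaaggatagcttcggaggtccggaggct
Cox7b: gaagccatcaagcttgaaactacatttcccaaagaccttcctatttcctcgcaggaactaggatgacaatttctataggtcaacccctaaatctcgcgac

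Each motif was searched on both strands over the whole windows of 300 bases. The NRF-1 core (GCGCATGCG) was found in Cycs, as CGCATGCGC at bases -61 to -53 from the start, and in Uqcrc1, at bases +31 to +40, where overlapping matches on both strands form 1 site. It is held by 1.75% of the 32851 promoter windows in the table. Cycs also holds a cyclic AMP response element (TGACGTCA) at bases -169 to -162, a motif of 1.79% of all windows that was added to the search after the sequence had been read. The Sp1 box (GGGCGG) was found in Cox7a2 at bases -44 to -39 and in Cycs at bases +32 to +37, and 35.7% of all windows hold it. The GABP and ETS core (CCGGAAG, 8.86% of windows), the ERR extended half-site (TCAAGGTCA, 0.423%) and the YY1 core (AAGATGGC, 2.75%) were found in none of the 5 windows. Cox5b and Cox7b held none of the motifs searched. The GC content of the windows was 65.0% for Cycs, 62.3% for Cox5b, 56.7% for Cox7a2, 56.3% for Uqcrc1 and 43.3% for Cox7b, against a median of 52.7% over all windows. A match is a description of the sequence, and binding was not measured on these arrays.

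Uqcrc1 encodes a core subunit of complex III, on the matrix side of the complex, and its probes went in opposite directions. Probe 855753 read 95637 (array A) and 97448 (array B) in the control, as quantile-normalized signals, against 139166 and 140300 after NT-PGC-1α expression. Both NT-PGC-1α arrays were above both control arrays, by 1.45-fold, and setting each NT-PGC-1α array against each control array gave 4 folds from 1.43 to 1.47. These 4 pairings give the range printed after every fold. Probe 709180, which is listed under the same symbol, read 2133 and 2313 in the control against 1003 and 1022 after NT-PGC-1α expression. Here both NT-PGC-1α arrays were below both control arrays, by 2.19-fold (2.09 to 2.31), and the groups did not overlap either.

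The probes differ in the gene identifiers that the deposited file gives them. Probe 709180 carries mCG16482.2 alone, while probe 855753 carries this identifier and mCG116410. A further probe, 603345, carries mCG116410 alone and is not in the study's list, so that its name rests on the shared identifier. It read 1099 and 1162 in the control against 824 and 1055 after NT-PGC-1α expression. Both NT-PGC-1α arrays lay below the control arrays, 1.21-fold on average, but the range over the pairings reached from 1.04 to 1.41 and array A was far lower than array B. That difference between arrays of 1 pool, 0.36 on the log2 scale, was the largest of the 12 probes, for which the median was 0.05. The region of the transcript to which each probe binds was not analysed here, and which Uqcrc1 probe follows the level of the transcript was not tested.

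Cycs, the gene of cytochrome c, was higher with NT-PGC-1α by all of its probes. Probe 424782 read 3195 and 3520 in the control against 5955 and 5987 after NT-PGC-1α expression. The NT-PGC-1α arrays were higher by 1.78-fold (1.69 to 1.87) and nearly equal to each other. This probe carries the identifier mCG119910.1 alone.

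Both other probes with the Cycs identifier also carry identifiers of other gene models, and neither is in the list. Probe 894005 read 794510 and 761426 in the control against 986688 and 1010504 after NT-PGC-1α expression, and was 1.28-fold higher (1.24 to 1.33). Probe 900401, with 3 identifiers, read 647178 and 606509 in the control against 702113 and 721449 after NT-PGC-1α expression, 1.14-fold higher (1.08 to 1.19). No Cycs probe overlapped between the groups, nor did 71.7% of all probes. All 3 Cycs probes were higher with NT-PGC-1α, and the ranges over pairings of the 2 shared probes lay below that of probe 424782. Processed copies of Cycs are common in mammalian genomes, and whether the shared identifiers stand for such copies was not analysed here.

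**Figure D1:**
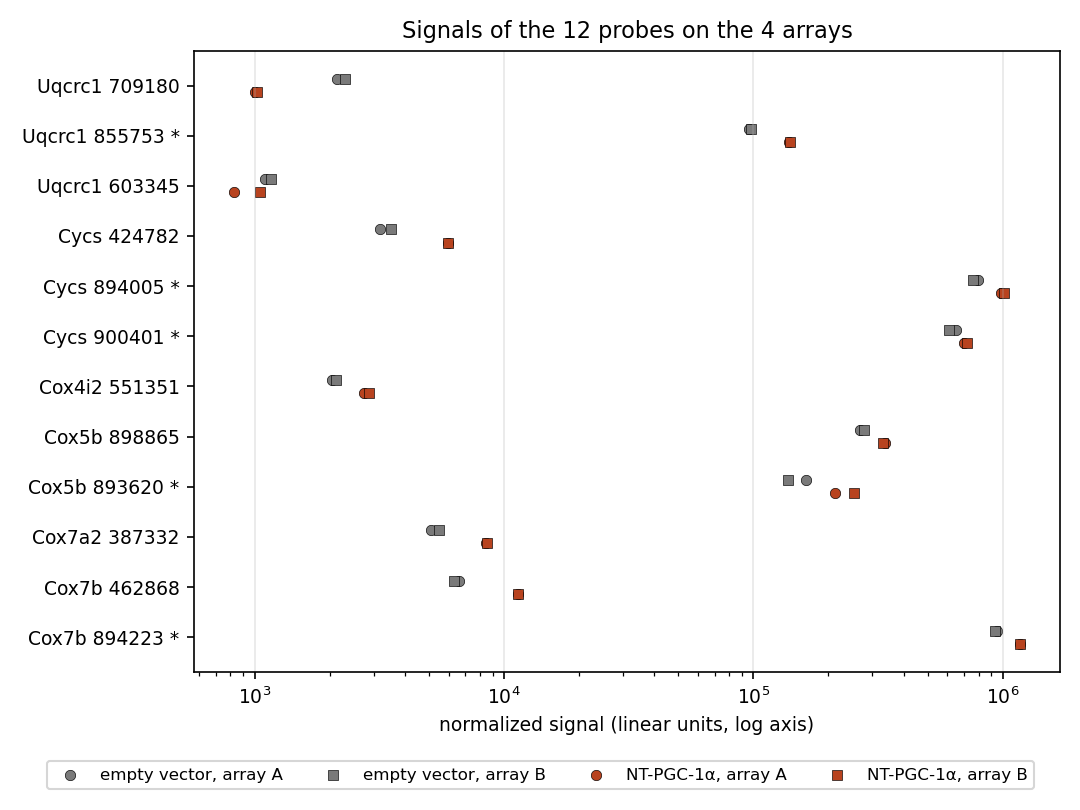
Quantile-normalized signal (x axis, linear units on a log axis) of each of the 12 probes (y axis, gene and probe number; an asterisk marks a probe with several gene identifiers) on the 4 arrays, with empty vector arrays in grey and NT-PGC-1α arrays in red, array A as circles and array B as squares. The groups were separate for all 12 probes, as they were for 71.7% of all probes of the array. The red points lay to the right of the grey ones for all but the Uqcrc1 probes 709180 and 603345.

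The listed genes of complex IV all had higher signals in the NT-PGC-1α pool. Cox4i2 encodes an alternative isoform of subunit 4, known from lung and from responses to low oxygen. Its single probe, 551351, read 2048 and 2119 in the control against 2740 and 2888 after NT-PGC-1α expression. The NT-PGC-1α arrays were higher by 1.35-fold (1.29 to 1.41), with no overlap. This fold depended on the scaling and was 1.13 without normalization.

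Cox5b encodes a zinc-binding subunit on the matrix side of complex IV. Probe 898865 read 267853 and 278481 in the control against 337286 and 330937 after NT-PGC-1α expression. Both NT-PGC-1α arrays were above both control arrays, by 1.22-fold (1.19 to 1.26). Probe 893620, which carries the Cox5b identifier mCG17741.1 together with 3 others and is not in the list, read 162119 and 137758 in the control against 212365 and 252530 after NT-PGC-1α expression. It was 1.55-fold higher, but arrays A and B differed more than for probe 898865, and the fold ranged from 1.31 to 1.83 over the pairings. The unlisted probe thus had a larger fold and a larger array error than the listed one, so that the list does not follow the order of the folds.

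Cox7a2 and Cox7b encode small subunits of complex IV that span the inner membrane, and Cox7a2 is the isoform found in most tissues. Cox7a2 probe 387332 read 5122 and 5492 in the control against 8471 and 8522 after NT-PGC-1α expression, 1.60-fold higher (1.54 to 1.66). Cox7b probe 462868 went from 6630 and 6295 to 11389 and 11408, 1.76-fold higher (1.72 to 1.81). For both genes the NT-PGC-1α arrays lay closer together than the control arrays. The unlisted probe 894223, with the Cox7b identifier mCG13797.1 and 1 other, read 947606 and 931006 in the control against 1169650 and 1176481 after NT-PGC-1α expression. Its fold of 1.25 after rounding (1.23 to 1.26) lay just under the threshold of 1.25 used for the counts, and below the range of probe 462868.

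Among the listed probes that were higher, the order by fold was Cycs, Cox7b, Cox7a2, Uqcrc1, Cox4i2 and Cox5b. Among neighbours in this order the ranges over pairings of Cycs and Cox7b overlapped, and those of the other neighbours did not. Both ends of the order turned under 3 of the 8 scalings, namely no normalization, median centring and centring on the 75th percentile. Without normalization Cox7b (1.54) passed Cycs (1.51), and Cox5b (1.21) passed Cox4i2 (1.13). Cox7b (1.81) also passed Cycs (1.70) when array A of the control was left out. With 1 pool per group, this order describes these pools.

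Counted together, 10 of the 12 probes were higher and 2 were lower in the NT-PGC-1α pool, and the groups did not overlap for any of the 12, nor for 71.7% of all probes. At least 1.25-fold higher without overlap were 7 of the 12 probes, where 26.2% of all 33012 probes met the same rule. At least 1.5-fold higher were 4 of the 12, against 16.9% of all probes. At least 1.25-fold lower was 1 of the 12, the Uqcrc1 probe 709180, against 26.0% of all probes. The counts at 1.25-fold and 1.5-fold higher were 5 and 3 without normalization, and 10 and 6 under centring on the 75th percentile. Of all 33012 probes, 8440 and 13104 met the 1.25-fold rule under these scalings, against 8661 with quantile normalization. The rise under centring on the 75th percentile thus came with a rise over the whole array. Since the genes were chosen by this contrast, nothing is read from the difference between these shares. The same rules were met by 23.8%, 12.9% and 23.5% of the 16506 probes above the median signal, a class to which all 12 probes belong. The median log2 fold of the 12 probes was 0.40, or 1.32-fold, and that of all probes was 0.01.

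The 5 probes outside the list were chosen less directly, but they share genes and arrays with the listed ones. Of these, 4 were higher and 1 was lower, with a median of 1.25-fold against 1.45-fold for the 7 listed probes. At least 1.25-fold higher without overlap were 2 of the 5 unlisted and 5 of the 7 listed probes, against 26.2% of all probes. The listed probes had been selected by fold on these arrays, so nothing is read from this difference. Split by identifiers, the 5 probes with several identifiers were all higher, with a median of 1.28-fold and folds from 1.14 to 1.55. The 7 probes with 1 identifier held both lower Uqcrc1 probes, 5 higher probes and the widest span, from 2.19-fold lower for Uqcrc1 to 1.78-fold higher for Cycs. The probes with several identifiers lay at signal percentiles of 97.4 to 99.9 of the array, a range that held Cox5b 898865 (98.8) alone of the probes with 1 identifier.

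**Figure D2:**
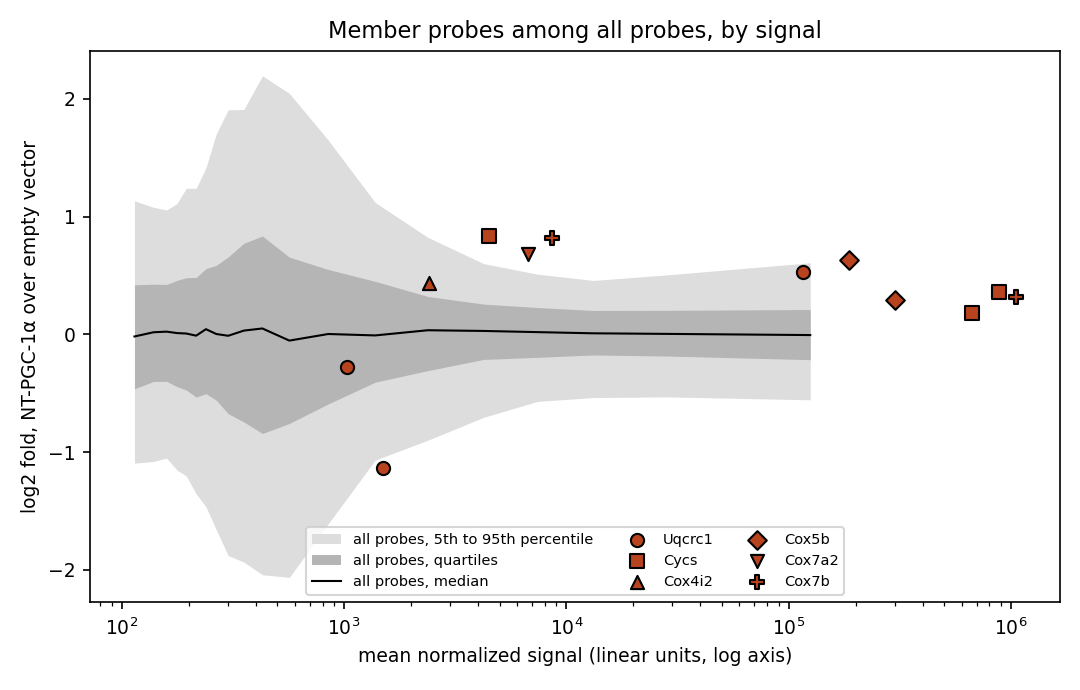
Log2 fold of NT-PGC-1α over empty vector (y axis) against the mean normalized signal (x axis, linear units on a log axis) for the 12 probes in red, one marker shape per gene, over the median, quartiles and 5th to 95th percentiles of all 33012 probes in bins of signal, drawn at the bin medians. The spread of all probes is widest at intermediate signals and narrower in the bins of the 12 probes with the highest signals; the Uqcrc1 probe 709180 lies at the lower edge of its bins and the listed Cycs, Cox7a2 and Cox7b probes lie above the upper edge, while both Cox5b probes (0.29 for 898865), the unlisted Cycs probes and Cox7b probe 894223 (0.32) lie beyond the last bin median.

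The spread of all probes depended on their signal, which sets how the folds compare with the array as a whole. In all probes together the listed Cycs probe stood at the 88.8th percentile of folds, Cox7b at 88.6, Cox7a2 at 85.2, the higher Uqcrc1 probe at 80.7, Cox4i2 at 76.5 and Cox5b at 69.1. The lower Uqcrc1 probe 709180 stood at the 6.88th percentile. The unlisted probes lay between the 30.8th percentile, for Uqcrc1 603345, and the 84.0th, for Cox5b 893620.

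The other named genes of the same complexes are few, because probes are named through the study's list of changed probes or through a RefSeq accession, and only 4.95% of the probes have a name. A list of 10 complex III genes had 2 with a named probe, Uqcrc1 and Uqcrh. Uqcrh encodes the hinge subunit of complex III, which takes part in the docking of cytochrome c. Its probe 585648 read 1607 and 1522 in the control against 884 and 984 after NT-PGC-1α expression, 1.68-fold lower (1.55 to 1.82). Complex III was thus represented by 3 named probes, of which 2 were lower, Uqcrh and Uqcrc1 709180, and 1 was higher. The Uqcrh promoter window held a GABP and ETS core, as CTTCCGG at bases -10 to -4.

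Of 22 complex IV genes, 5 had a named probe, the 4 described above and Cox7c, another small membrane subunit. Cox7c probe 896586 read 335954 and 337286 in the control against 525775 and 513950 after NT-PGC-1α expression, 1.54-fold higher (1.52 to 1.57). Cox7c probe 896854, with the same identifier, read 270997 and 270424 in the control against 401529 and 365764 after NT-PGC-1α expression, 1.42-fold higher (1.35 to 1.48). All 6 named probes of complex IV were higher without overlap, with a median of 1.48-fold and a range of 1.22 to 1.76. All 6 are in the study's list of changed probes, and 71.7% of all probes did not overlap between the groups either. The Cox7c window held none of the motifs searched.

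Of 29 assembly factors of complexes III and IV, 2 had a named probe. Higd1a, a small inner-membrane protein that associates with complex IV, went by probe 504962 from 147881 and 146007 in the control to 219596 and 209686 after NT-PGC-1α expression, 1.46-fold higher (1.42 to 1.5). A second Higd1a probe, 502257, which shares an identifier and is not in the list, had overlapping groups, with 842 and 834 in the control against 628 and 845. Coa3, an assembly factor of complex IV, read 147413 and 147229 in the control against 124813 and 113035 after NT-PGC-1α expression by probe 644434, 1.24-fold lower (1.18 to 1.30). Coa3 was named by its RefSeq accession and is not in the study's list.

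For the rest of the chain, 7 of 36 complex I genes had a named probe, 6 of them higher and 1, Ndufb2, lower, with a median of 1.41-fold. The ATP synthase had 2 named genes of 16, both higher, with a median of 1.44-fold, while 4 further probes that share an identifier with them split into 2 higher and 2 lower, with a median of 1.12-fold. A further probe that shares an identifier with a complex I gene had overlapping groups, at 1.14-fold. Over all 33012 probes, 11986 were higher and 11683 lower without overlap. None of 4 complex II genes had a named probe. The median over the 6 complex IV probes was 1.48-fold, with no test of the difference. Complexes III and I held lower probes, and complex IV held none among its named probes. All named subunit probes come from the list of changed probes and cover few genes of each complex. Nothing is therefore read from the differences between complexes.

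**Figure D3:**
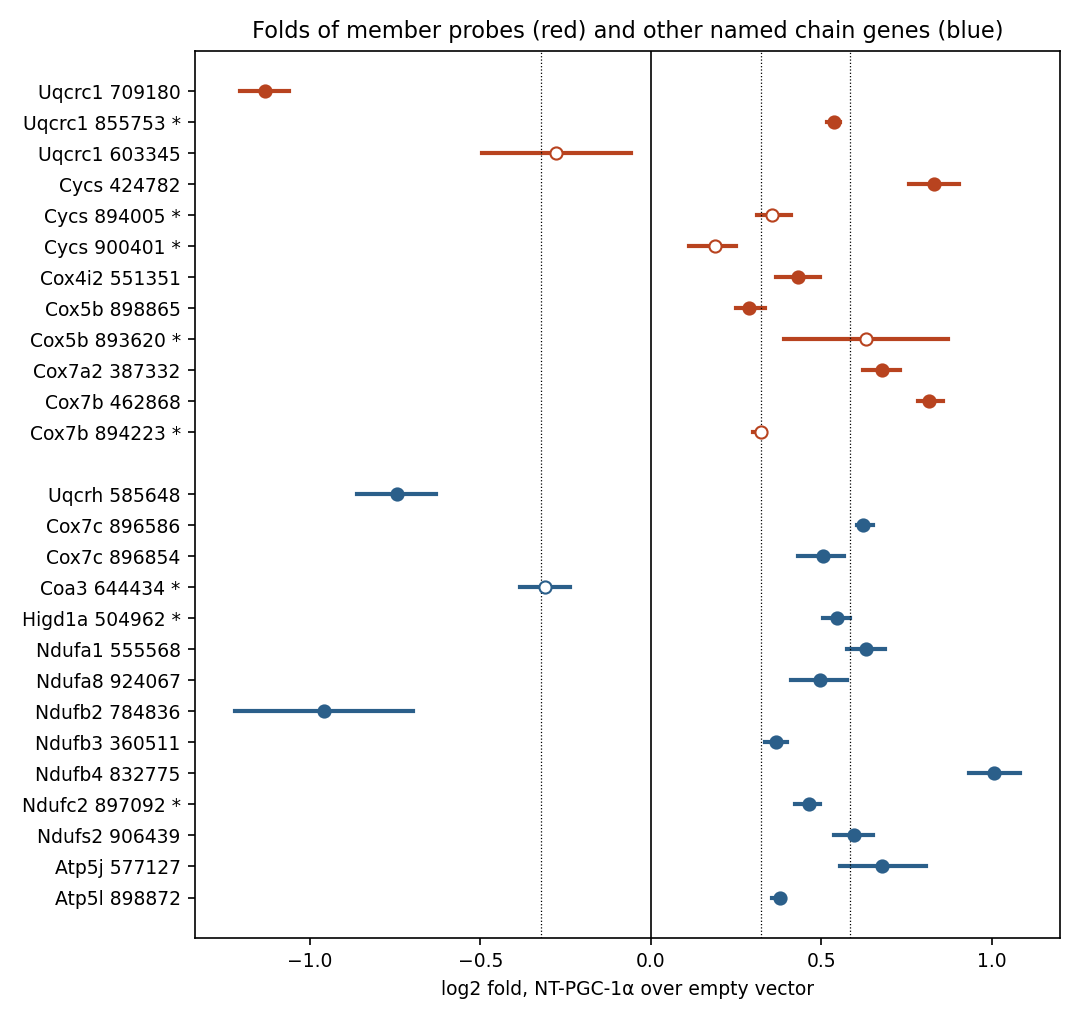
Log2 fold of NT-PGC-1α over empty vector (x axis) of the 12 probes of the 6 genes (red) and of the other named probes of the chain and its assembly factors (blue), with bars for the range over the 4 pairings of arrays, open points for probes outside the study's list, an asterisk for several identifiers, and dotted lines at 1.25-fold in each direction and at 1.5-fold higher. Lower signals were seen for Uqcrc1 709180 (-1.13), Uqcrc1 603345 (-0.28), Uqcrh (-0.75), Coa3 (-0.31) and Ndufb2 (-0.96), and every other probe shown was higher.

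Regulators were measured on the same arrays. Ppargc1a, the gene from which NT-PGC-1α derives, was higher by 7.06-fold (5.26 to 9.46) by probe 847307, from 114 and 136 in the control to 1078 and 714 after NT-PGC-1α expression. The control signals of this probe were among the low ones of the array, and adding the 5th percentile of all signals to each value brought its fold to 4.19. A second probe with the Ppargc1a identifier, 747719, was 1.63-fold higher (1.14 to 2.32), from 226 and 149 to 258 and 345. The added coding sequence derives from Ppargc1a, and it could not be told apart here from the cells' own transcript. Whether either probe reads the added sequence was not analysed. Nrf1, the gene of the transcription factor NRF-1, read 6897 and 6757 in the control against 3950 and 3815 after NT-PGC-1α expression by probe 453299, 1.76-fold lower (1.71 to 1.81). A second probe with the Nrf1 identifier, 396564, was lower as well, 2.01-fold (1.51 to 2.67), from 884 and 1095 to 584 and 411. The Cycs and Uqcrc1 promoter windows, which hold the NRF-1 core, belong to 1 gene whose probes were all higher and to 1 whose probes went both ways.

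Markers of other cell types are given where a probe could be named. Every named marker was named through the study's list of changed probes, so that a difference between the groups was fixed by the naming. Over all probes, 26.0% were at least 1.25-fold lower without overlap and 26.2% at least 1.25-fold higher. All 3 named markers of a list of 7 preadipocyte and fibroblast genes, Thy1, Col1a1 and Col3a1, were lower after NT-PGC-1α expression, their summed signals being 406020 and 447692 in the control against 268619 and 287213. Col3a1 makes up most of these sums. Singly, Thy1 was 8.59-fold lower, Col1a1 1.59-fold and Col3a1 1.5-fold. Lower too were both named macrophage markers of 5, Cd68 and Lyz2, with sums of 6086 and 5778 against 3112 and 2742, and all 3 named skeletal muscle markers of 6, with sums of 5461 and 5295 against 3299 and 3307. Of 3 further probes that share an identifier with the muscle markers, however, 2 were higher and 1 overlapped, with a median of 1.43-fold. Most of the muscle sum came from Myl2, and Myh4 lay at the 17.6th percentile of signals. The named endothelial marker of 3, Cdh5, was higher, at 411 and 339 against 895 and 754. Of the brown adipocyte list 2 of 9 genes were named, Ppara and Ppargc1a, both higher, and of the adipocyte list 1 of 10, Slc2a4, 1.27-fold higher. The added coding sequence derives from Ppargc1a, so its higher signal is not read as a marker, which leaves Ppara alone of the brown adipocyte list. Ucp1, Cidea and the other defining genes of these lists had no named probe and are not analysed here, so that the label of the cells was not checked by them. No marker can be called absent, since the signals used here have no measure of background. In bulk RNA, fewer cells of a type and less RNA per cell cannot be told apart, and the part of these shifts in the folds of the respiratory chain genes was not tested.

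The named probes most like the higher listed probes were found by the distance between profiles over the 4 arrays, each profile centred on its own mean of log2 signals, among 1279 named probes above the median signal. The closest 5 were Acadvl (distance 0.0212, 1.54-fold higher), Ppm1l (0.0238, 1.53-fold), Dusp10 (0.0263, 1.51-fold), Sec14l1 (0.0264, 1.53-fold) and Pop7 (0.0266, 1.51-fold). Acadvl encodes the very long chain acyl-CoA dehydrogenase of mitochondrial fatty acid oxidation, Dusp10 and Ppm1l encode phosphatases, and Pop7 encodes a protein of ribonuclease P. The genes themselves lay farther from their own mean profile, from 0.0666 for Uqcrc1 855753 and 0.0894 for Cox7a2 to 0.309 for Cox5b, and Uqcrc1 709180 lay at 1.73. The closest 5 were picked as the smallest distances among 1279, while the genes were not picked by distance. All 5 are in the study's list of changed probes, with folds from 1.51 to 1.54. The mean profile came from the contrast that made this list. Nothing is therefore read from the genes lying farther. Each profile rests on 4 arrays of 2 pools.

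The folds of the 12 probes were compared over 8 ways of scaling the arrays, and none changed its direction. The listed Cycs probe was 1.51-fold to 1.82-fold higher and the listed Cox7b probe 1.54-fold to 1.85-fold. Cox7a2 ranged from 1.40 to 1.68, so that it was below 1.5-fold without normalization and under median centring. Cox4i2 ranged from 1.13 to 1.35 and Cox5b 898865 from 1.21 to 1.45. The Uqcrc1 probe 855753 ranged from 1.39-fold to 1.67-fold higher, 709180 from 2.07-fold to 2.62-fold lower and 603345 from 1.18-fold to 1.42-fold lower.

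**Figure D4:**
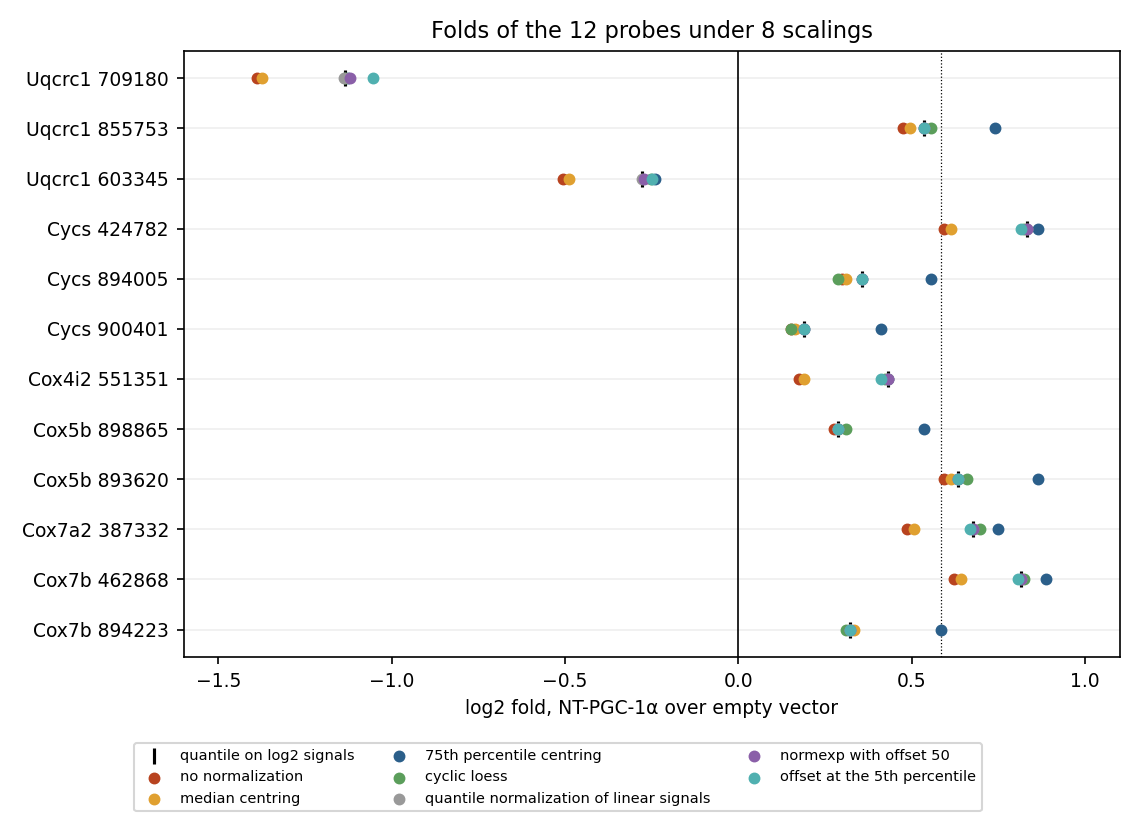
Log2 fold of NT-PGC-1α over empty vector (x axis) of each of the 12 probes (y axis) under 8 scalings, with the quantile normalization used in the text as a black bar, a solid line at no difference and a dotted line at 1.5-fold higher. No probe crossed the line of no difference; centring on the 75th percentile gave the highest fold of most probes, and no normalization and median centring gave the lowest folds of Cycs 424782 (1.51 without normalization), Cox4i2 (1.13), Cox7a2 (1.40) and the lower Uqcrc1 probes.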

How the data were processed

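The values used were intensities that the authors deposited for 33012 probes on 4 arrays (digoxigenin label, chemiluminescent analyzer). They precede the normalization, signal to noise filter and quality flags of the study's methods, and whether background had been subtracted was not established. Per the labels' processing notes R 2.2.1 was used; no column was left unmapped (0).

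The log2 intensities were normalized by quantiles with limma 3.58.1 in R 4.3.3, with no probe removed. A fold is the difference of mean log2 signals of the groups on the linear scale, and its printed error the range over 4 pairings of arrays. Shifts of a fold under the alternatives were instead set against the standard deviation over these pairings. With 1 pool per group no test of NT-PGC-1α was possible; the tests named among the alternatives set the pools against the error between arrays only. Python 3.11.15, numpy 2.4.6, pandas 2.3.3 and matplotlib 3.10.9 did the rest, and the fold calculation was tested on simulated data with 200 changed probes. With so few of 33012 probes changed, the simulation could not test how the scaling bears on the folds of the real arrays.

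Names came from the study's list (1342 probes) and RefSeq accessions (293 more), used for names only, 1635 in all. Probes sharing a gene identifier with a listed probe of the 6 genes were included. Named otherwise were the measured genes of complexes III and IV and their assembly factors, Ppargc1a, Nrf1, and the 5 nearest profiles; Ndufb2 and the markers were named after their values were seen. The genes, lists and thresholds were chosen with earlier results of these data known. Alternatives were other scalings, an offset of 50 with normexp, an offset at the 5th percentile, a median filter, leaving out each array, the mean over a gene's probes, identifiers without version, limma (lmFit, eBayes, Benjamini-Hochberg), and the methods' t-test with and without the array letter as a block. The use of probes with 1 identifier only was added after seeing the data.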

Additional observations from a re-analysis of the deposited data

How the results depend on the processing

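No probe of the 6 genes changed direction under any alternative. Against the standard deviation over the 4 pairings of arrays, 129 values of single probes moved by less and 27 by more. The 27 came from other scalings and the offset at the 5th percentile. Under the median filter, identifiers without version and leaving out an array, a larger move was not possible. The 129 are therefore no measure of stability. Without normalization the median log2 fold of the 12 probes went from 0.40 to 0.31, that of the 5 unlisted probes from 0.32 to 0.30, and 2 probes rather than 1 were at least 1.25-fold lower. Median centring gave 0.33 and 2 lower probes, cyclic loess gave an unlisted median of 0.29, and the mean over each gene's probes gave 0.46. Centring on the 75th percentile gave 0.57 and 0.56 and moved the median of all probes to 0.22 and the higher share of all probes past 1.25-fold from 50.2% to 69.9%. Tests over the 4 arrays set the pools against array error and say nothing of the spread between pools. Added to the 1.25-fold and 1.5-fold rules, the methods' t-test left 6 and 3 of the 7 and 4 higher probes, and limma 5 and 3. The t-test with the array letter as a block left 4 and 2, although the letters only number technical arrays. Shares of all probes were not computed for these tests or for leaving out arrays, so nothing is read from such counts. Probes with 1 identifier alone gave 4 probes, a median of 0.43, and for the unlisted probes, where Uqcrc1 603345 alone was left, -0.28. Leaving out 1 array in turn gave 7 to 8 probes at least 1.25-fold higher, 3 to 4 at least 1.5-fold, 1 to 2 lower (2 without array B of NT-PGC-1α, where Uqcrc1 603345 passed), and medians of 0.37 to 0.42 and of 0.31 to 0.33 for unlisted probes. The causes were not tested. With 1 pool per group and no background measure, neither culture spread nor detection could be judged.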
